A study of Mus musculus with 24 samples.

Results

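The peroxisome proliferator-activated receptors (*Pparg*, *Ppara* and *Ppard*), the retinoid X receptors (*Rxra*, *Rxrb* and *Rxrg*) and the liver X receptors (*Nr1h2*, which encodes LXRβ, and *Nr1h3*, which encodes LXRα) were followed through the differentiation of 3T3-L1 cells, with and without an inhibitor of sumoylation. These 8 genes were chosen by name, as the lipid-sensing nuclear receptors that bind DNA as heterodimers with RXR together with RXR itself, out of 26995 gene symbols in the files. Earlier results of these data were known when they were chosen. All 8 were counted, and all 8 passed the filter on low counts in total reads, while 4 of them (*Pparg*, *Rxra*, *Ppard* and *Nr1h3*) passed it in labelled reads.

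3T3-L1 is a line of mouse embryonic fibroblasts that turns into adipocytes when it is given dexamethasone, IBMX and insulin. Cells were kept in DMSO, the vehicle, or in 0.5 µM ML-792, which blocks the enzyme that starts SUMO conjugation, and were collected 2 days before induction (day −2, still pre-adipocytes) and at days 1, 3 and 7. There were 3 biological replicates (libraries A, B and C) for each of the 8 conditions, 24 libraries in all. For how long cells had been in ML-792 at day −2 is not given in the sources used here. New RNA was marked with 100 µM 4-thiouridine for 45 min before harvest, so that a read of the 3′ end with at least 1 T-to-C change (a labelled read) came from RNA made in that time, while all reads together (total reads) stand for the RNA present. All groups share the line and the 4-thiouridine pulse. The groups of days 1, 3 and 7 share the induction medium, which the day −2 cells had not received. It was replaced at day 3 by a maintenance medium with insulin, so the medium differs between days. No cell was unlabelled and no untreated group is used here, so the background of T-to-C changes was not measured.

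PPARs and LXRs are transcription factors that are switched on by fatty acids and by oxysterols, and each binds a direct repeat of the half-site AGGTCA only together with RXR. PPARγ is the central regulator of adipocyte formation, PPARα and PPARδ drive genes of fatty acid oxidation, and the LXRs drive genes of cholesterol export and fatty acid synthesis. RXR is therefore shared by all the partners in the cell, and PPARs, LXRs and RXRs are all known to be modified by SUMO.

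Each receptor was read at the 3′ end of its transcript. The half-site was searched on both strands in the 14 RefSeq promoters (250 bases before to 50 after a start site, GRCm38.p6) of the 8 genes. It was present in 4 of the 14, which is 28.6%, against 16.3% of all 32851 promoters. The half-site repeated after 1 base (DR1, the form that PPAR and RXR bind) or after 4 bases (DR4, the form that LXR and RXR bind) was in none of the 14 promoters, searched for as an exact repeat on both strands, and in 0.0396% and 0.0152% of all promoters. The stretches of 30 bases around the half-sites are shown because they place the letters these receptors bind beside their own start sites. Capitals mark the half-site, all are written 5′ to 3′ on the strand of the gene, and the second *Rxra* stretch holds it on the opposite strand.
Pparg, chr6:115361104-115361133: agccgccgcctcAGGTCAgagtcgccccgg
Pparg, chr6:115362328-115362357: agggacgcgaggAGGTCAagaaggggcctg
Rxra, chr2:27709232-27709261: gggtggcaggaaAGGTCAgtcactctctgt
Rxra, chr2:27709193-27709222: tagaaatgggtgTGACCTgagtaatggtca
Rxrg, chr1:167618165-167618194: atcggggttgaaAGGTCAgctgaaagcttc
A match to these letters is a description of the sequence and not of binding.

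Depth ran from 13554718 to 27013352 total reads a library (median 17428698) and from 115709 to 820046 labelled reads. The labelled share of all reads was 3.19% ± 0.47 at day −2 in DMSO and 1.01% ± 0.09 at day 7 (SD, n = 3), so most transcripts had fewer labelled reads after induction. The adipocyte markers (*Adipoq*, *Fabp4*, *Plin1*, *Cidec*, *Cfd*, *Retn* and *Lep*) summed to between 1224 and 2171 normalized counts at day −2 in DMSO, to between 364324 and 440312 at day 7, and to between 616889 and 639534 at day 7 in ML-792. The 5 pre-adipocyte markers went from between 186366 and 234523 to between 12436 and 18895 in DMSO and to between 19367 and 25369 in ML-792. The 3 brown adipocyte markers summed to between 3.52 and 13.6 at day −2 in DMSO, to between 738 and 959 at day 7, and to between 183 and 259 at day 7 in ML-792. Most of it at day 7 was *Cidea*, itself a listed PPARγ target, while *Ucp1*, which defines brown adipocytes, had at most 3.81 normalized counts at day 7. The 3 skeletal muscle markers together had at most 3.58 in any library. The summed markers of adipocytes, pre-adipocytes and brown adipocytes did not overlap between treatments at day 7, and their part in the receptor values was not tested. A rise in a bulk sample does not tell more RNA per cell from more cells of a type. Library B deviated most from the other libraries of its condition in 8 of the 8 conditions, over all genes, and where a call described here changes without it, the value without it is given.

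In DMSO, the receptors were higher in day 7 cells than in pre-adipocytes, and the family changed its balance: *Nr1h3* and *Pparg* rose most among the well-counted members, *Rxra* rose early and was lower again at day 7 than at day 3, a fall whose call depended on the setting, and *Ppard*, *Rxrb* and *Nr1h2* rose by about 1 on the log2 scale or less. At day 7, 8 of 8 genes were called higher than at day −2 by edgeR's quasi-likelihood test at an adjusted p under 0.01, where 19.3% of the 13331 genes tested were called higher. The median log2 fold change of the 8 was 1.94, against 0.0033 over all genes. *Rxrg* passed the filter on low counts only through its day 7 libraries and had to differ. At day 3, 6 of 8 were higher (17.9% of all genes), and at day 1, 2 were higher (7.61%) and 1 was lower (9.36%). Without the A libraries only *Nr1h3*, *Pparg*, *Rxra* and *Rxrg* were called at any day.

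**Figure D1:**
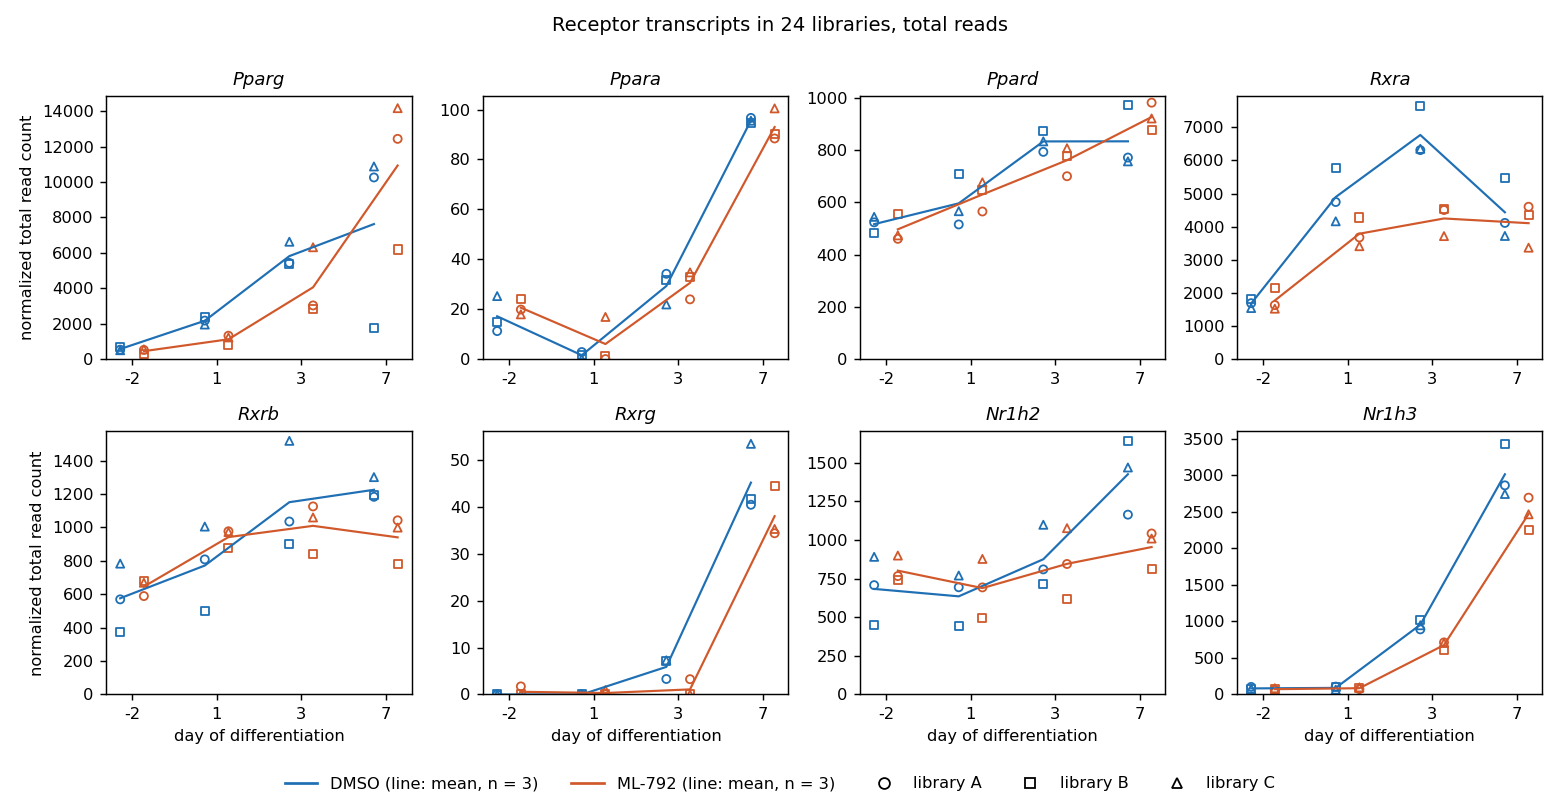
Normalized total read counts (y axis, counts scaled to a common library size, from 0) of the 8 receptor genes by day of differentiation (x axis), in DMSO (blue) and ML-792 (orange). Symbols are the 3 libraries of a condition and lines join the means. Pparg reaches 10260.2 and 10881 in 2 DMSO libraries of day 7 and 1739 in library B.

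*Pparg* was counted at chr6:115490196-115490404 (mm10, + strand), an annotated 3′ untranslated region of 209 bases under XM_006505743.3. Its normalized total counts in DMSO were 531, 668 and 499 (libraries A, B and C) at day −2, then 2174, 2365 and 1950 at day 1. They were 5432, 5387 and 6629 at day 3, and 10260.2, 1739 and 10881 at day 7. The libraries of the first 3 days did not overlap from one day to the next, and the day 7 libraries fell on both sides of day 3 because of library B. Against day −2 the log2 fold change was 1.93 (SE 0.44, adjusted p = 0.00528) at day 1, 3.36 (SE 0.47, adjusted p = 3.5e-05) at day 3 and 3.75 (SE 0.48, adjusted p = 1.2e-05) at day 7 (edgeR). The day 7 call was made under all 12 alternative settings, with log2 fold changes from 3.32 to 4.36. The day 1 call was kept under 8 of 12 alternatives, and among the others it was lost without the A libraries (log2 fold change 1.89), without the C libraries (1.92) and with a filter of at least 10 reads (1.93, adjusted p = 0.0147). Day 7 was not called against day 3 (0.39, SE 0.43, adjusted p = 0.602). Without the day 7 library B, an omission chosen after seeing the data, the same comparison was called at 0.86 (adjusted p = 0.00567). Over the alternatives of this comparison the adjusted p ran from 0.00075 to 0.977.

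The low *Pparg* value of the DMSO day 7 library B was 2.60 log2 units under the mean of libraries A and C, and 36 of 13331 genes deviated further down in that library. Its targets did not share that deviation. Of 22 genes known as PPARγ targets, 16 were higher in library B than in A and C and 6 were lower, with a median of 0.10 and a range from −0.79 to 0.60, against a median of 0.0052 over all genes. Among the other receptors, the same library lay between −0.15 (*Rxrg*) and 0.48 (*Rxra*). Its labelled *Pparg* count was low as well, at 28.1 beside 195.6 and 143 in libraries A and C, and the labelled share of *Pparg* reads was 1.62% in B, 1.91% in A and 1.32% in C. *Pparg* was lowest in the B library in 6 of the 8 conditions, and in ML-792 at day 7 library B lay 1.10 log2 units under A and C. What sets library B apart was not tested.

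**Figure D2:**
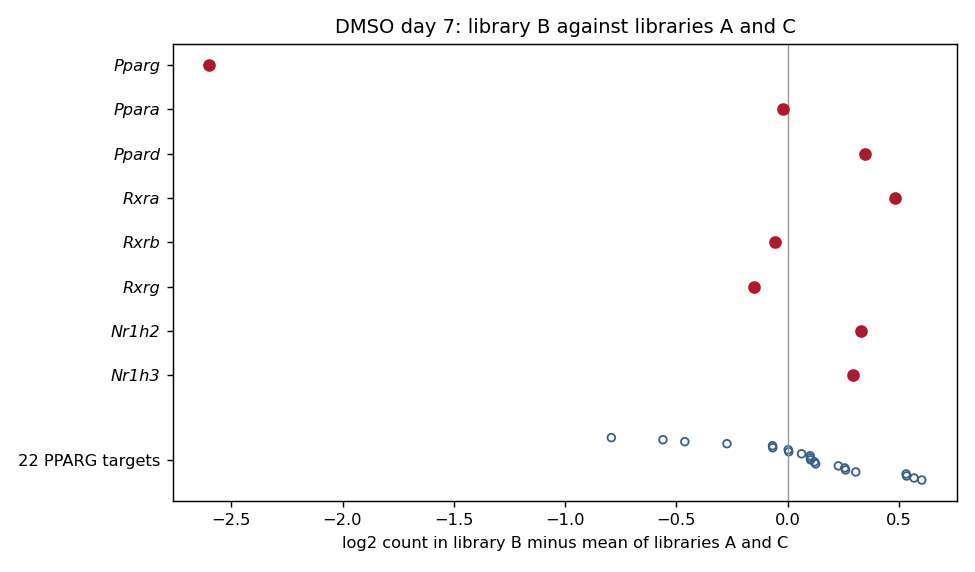
Difference of the DMSO day 7 library B from the mean of libraries A and C (x axis, log2 of the normalized total count plus 2) for the 8 receptors (filled) and 22 PPARγ target genes (open). Pparg stands alone at −2.60, while the targets lie between −0.79 and 0.60.

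*Nr1h3* encodes LXRα, the LXR of liver, fat and macrophages, and had the largest well-measured rise. It was counted at chr2:91184061-91184335 (− strand, NM_013839.4). Its normalized total counts in DMSO were 103, 68.7 and 77.5 at day −2 and 108, 97.1 and 66.5 at day 1, and these 2 days overlapped. They were 891, 1024 and 947 at day 3 and 2861, 3433 and 2743 at day 7, well apart from each other and from the earlier days. The log2 fold change against day −2 was 0.12 (SE 0.21, adjusted p = 0.754) at day 1, 3.52 (SE 0.22, adjusted p = 6.7e-09) at day 3 and 5.17 (SE 0.24, adjusted p = 2.4e-10) at day 7 (edgeR). By edgeR it was the one receptor called higher at day 7 than at day 3 (1.66, SE 0.20, adjusted p = 4.2e-05), where 6.03% of all genes were. The rises of *Rxrg* and *Ppara* between these days were not called there. DESeq2 called both (log2 fold changes 2.99 and 1.74, adjusted p = 0.00024 each), as did edgeR with no filter on low counts (2.92 and 1.70). *Nr1h2* encodes LXRβ, which is found in most tissues, and moved little. It was counted at chr7:44549616-44549984 (− strand, XM_017322126.1) with 707, 451 and 890.5 at day −2, 694, 441 and 769 at day 1, 809, 717 and 1098 at day 3, and 1163, 1643 and 1468 at day 7. The first 3 days overlapped, and day 7 lay above them with a log2 fold change of 1.06 (SE 0.27, adjusted p = 0.00409) against day −2. That call was lost without the A libraries (1.21) and without the DMSO day 7 library B (0.95).

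*Rxra*, the main RXR of most tissues, was counted over chr2:27759689-27763319 (+ strand, NM_011305.3). Its normalized total counts in DMSO were 1688, 1803 and 1542 at day −2 and 4745, 5779 and 4162 at day 1. They were 6314, 7647 and 6353 at day 3 and 4114, 5471 and 3719 at day 7. Every library after induction was above every library of day −2, and day 3 did not overlap with any other day. The log2 fold change against day −2 was 1.55 (SE 0.19, adjusted p = 2.7e-05) at day 1, 2.01 (SE 0.19, adjusted p = 5.9e-07) at day 3 and 1.40 (SE 0.19, adjusted p = 1.9e-05) at day 7, and day 7 against day 3 was −0.61 (SE 0.19, adjusted p = 0.0353), which missed the threshold of 0.01 (edgeR). That fall was called under 2 of 12 alternatives, 1 of them the fit without the B libraries (−0.69, adjusted p = 0.00161), and its adjusted p ran from 0.00076 to 0.317. A shorter *Rxra* entry ends 360 bases upstream of this one. Reads that only the longer entry held made up 3.57% ± 2.35 of *Rxra* reads at day −2 and 3.99% ± 1.15 at day 7 (SD, n = 3), and the libraries of the 2 days overlapped. The last 30 counted bases of both entries and of *Pparg* are shown because they are the annotated ends, and the assay primes reverse transcription with oligo-dT. Capitals mark the polyadenylation signal ATTAAA, which was found in the *Pparg* end alone of these.
Rxra, longer entry, chr2:27763290-27763319: gccatcttgtgataaatgccctttgtctcc
Rxra, shorter entry, chr2:27762930-27762959: ttcaaaatatatctccattcggttctcatc
Pparg, chr6:115490375-115490404: tATTAAAaattaccacattataaaattgtt

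*Rxrb* was counted at chr17:34037532-34038403 (+ strand, NM_011306.4). Its normalized total counts in DMSO were 569.5, 375 and 783 at day −2, 809, 502 and 1005 at day 1, 1035, 899.8 and 1519 at day 3, and 1183, 1192 and 1301 at day 7. Days 3 and 7 lay above day −2 in every library, and the other neighbouring days overlapped. The rise was called at day 3 (log2 fold change 1.00, SE 0.28, adjusted p = 0.00994) and day 7 (1.09, SE 0.28, adjusted p = 0.00549). Both calls were lost without the A libraries (1.06 and 1.11) and without the DMSO day 7 library B (1.00 and 1.11), and the day 3 call also without the C libraries (1.02).

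*Rxrg*, which is known from muscle, brain and fat, was counted at chr1:167639274-167639623 (+ strand, NM_009107.3). No read was counted in the 3 DMSO libraries of day −2 or in those of day 1. There were 3.31, 7.06 and 7.29 normalized counts at day 3 and 40.5, 41.6 and 53.5 at day 7. With day −2 set to a floor of 3 counts per library, the mean rose at least 2.31-fold to day 3 (edgeR's adjusted p = 0.00259) and at least 17.7-fold to day 7 (4.1e-05). The day 3 call rests on few reads and was lost without any one of A, B or C, at fitted log2 fold changes from 5.42 to 5.89.

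*Ppara*, the PPAR of liver and of fatty acid oxidation, was scarce at every stage. Its entry at chr15:85801259-85806851 (+ strand, XM_011245517.2) had 11.2, 15.0 and 25.2 normalized counts in DMSO at day −2, and 2.81, 1.80 and 0 at day 1. It had 34.2, 31.8 and 21.9 at day 3, and 96.7, 94.7 and 95.5 at day 7. The gene thus fell before it rose, being called lower at day 1 (log2 fold change −3.41, SE 0.64, adjusted p = 0.00116) and higher at day 7 (2.47, SE 0.47, adjusted p = 0.00045). The fall was lost without the A libraries (−4.34) and without the C libraries (−2.45), and the rise without the A libraries (2.23). *Ppard*, the PPAR present in most tissues, was counted at chr17:28299850-28301469 (+ strand, NM_011145.3) with 524, 482 and 545 at day −2, 516, 707.5 and 567 at day 1, 794, 874 and 834 at day 3, and 772, 973 and 757.5 at day 7. Days 3 and 7 were above day −2 in every library, with log2 fold changes of 0.69 at both days (SE 0.17 each, adjusted p = 0.00421 and 0.00395). Both calls were lost without the A libraries (0.73 and 0.75) or the C libraries (0.72 and 0.79), and the day 7 call also without the DMSO day 7 library B (0.57).

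The order of the 8 genes by level depends on whether counts are divided by length. At day 7 in DMSO, normalized total counts per kilobase of counted sequence were highest for *Pparg* (36491.5), then *Nr1h3* (10955), *Nr1h2* (3861), *Rxrb* (1405), *Rxra* (1221), *Ppard* (515), *Rxrg* (129) and *Ppara* (17.1). Reads of this assay gather at the 3′ end whatever the length, so dividing by length lowers genes with a long entry. By counts alone *Rxra*, with an entry of 3631 bases, was the second of the 8, after *Pparg*. At day −2 *Pparg* was also first per kilobase (2708), followed by *Nr1h2* (1851), while by counts alone *Rxra* ranked 1 and *Pparg* 4.

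The genes whose log2 counts ran most like those of a receptor over the 24 libraries were found by Pearson correlation, as a description without a test, since all libraries share the course of differentiation. For *Nr1h3* they were *Adipoq* (0.99) and *Pnpla3* (0.99), an adipokine and a lipid droplet enzyme. *Pparg* ran closest to *Hacd2* (0.97) and *Etfdh* (0.96), *Rxra* to *Bcar3* (0.94) and *Ssh2* (0.94), and *Rxrb* to *Drg1* and *Jmjd8* (0.92 each). *Ppara* ran closest to *St3gal6* (0.96) and *Epb41l5* (0.95), *Ppard* to *Poldip2* (0.96) and *Fcor* (0.95), *Rxrg* to *Rgr* (0.96) and *Tmem182* (0.95), and *Nr1h2* to *Map1lc3a* (0.94) and *Tmem214* (0.93). The names depend on the measure. Spearman correlation named other genes for *Nr1h3* (*Gde1* and *Gm29688*), *Rxrb*, *Rxrg* and *Nr1h2*. It changed part of the pair for *Pparg* and *Ppara* and kept the pair for *Rxra* and *Ppard*.

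Labelled reads count the RNA made in the last 45 min before harvest. Between day −2 and day 7 in DMSO the median gene fell by 1.45 on the log2 scale in labelled reads, and by the same measure *Pparg* and *Nr1h3* rose, 2 of the 4 receptors tested, where 2% of 6434 genes were called higher and 27.4% lower. *Nr1h3* passed the filter in labelled reads only through its later days and had to differ. Among all genes called at day 7, 6.83% were higher, and 41.6% when labelled counts were scaled by labelled reads instead. The normalized labelled counts of *Pparg* were 25.6, 35.2 and 14.8 at day −2, 71.1, 83.6 and 52.2 at day 1, 97.0, 61.2 and 83.9 at day 3, and 195.6, 28.1 and 143 at day 7. Days 1 and 3 lay above day −2 in every library and overlapped with each other, and library B of day 7 fell back into the range of day −2. At day 1 the log2 fold change was 1.45 (SE 0.46, adjusted p = 0.0131), not called but called under 5 of 12 alternatives, without the B libraries among them (1.60, adjusted p = 0.00138). It was 1.67 (SE 0.46, adjusted p = 0.00287) at day 3, where 2.04% of genes were called higher, and 2.27 (SE 0.47, adjusted p = 0.000106) at day 7. Both calls were lost without the A libraries (1.53 and 1.77) and without the C libraries (1.36 and 1.87).

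*Nr1h3* had no labelled read at day −2 in the 3 DMSO libraries. On day 1 its normalized labelled counts were 0.94, 0 and 0. At day 3 it had 12.1, 5.88 and 6.08, followed by 14.6, 8.33 and 2.27 at day 7. With day −2 set to a floor of 3 counts per library, the mean was at least 3.15-fold higher at day 3 (edgeR's adjusted p = 0.0026). At day 7 the mean was at least 3.29-fold higher (adjusted p = 0.00247), although library C (2.27) lay under that floor (2.55 when normalized). The gene passed the filter only through these later days. The calls were lost at both days without the C libraries, and at day 7 without the B libraries too, at fitted log2 fold changes of 6.21, 6.56 and 6.13, and without the A libraries the gene was not among those tested. The labelled share of *Nr1h3* reads in DMSO was 0.86% ± 0.44 at day 3 and 0.28% ± 0.22 at day 7 (SD, n = 3). Over all reads it was 1.02% and 1.01%, and how many of these labelled reads are background was not measured.

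In DMSO, labelled *Rxra* reads were 24.8, 22.9 and 26.1 at day −2, 30.9, 30.6 and 27.8 at day 1, 39.7, 49.4 and 42.6 at day 3, and 12.4, 19.8 and 25.0 at day 7. The day 3 libraries were above all others, at a log2 fold change of 0.83 (SE 0.47, adjusted p = 0.133) against day −2, which was not called. Scaled by labelled reads, the same difference was 2.03 and was called. *Ppard* had 24, 13.2 and 26.1 labelled counts at day −2, and between 0.90 and 11.0 in the 9 later DMSO libraries, all of them below every day −2 library. Its log2 fold change at day 7 was −1.92 (SE 0.77, adjusted p = 0.036) and was not called, near the median of all genes, although its total reads were higher. The labelled share of *Ppard* reads was 4.04% ± 1.13 at day −2 and 0.67% ± 0.12 at day 7, and that of *Rxra* reads 1.48% ± 0.21 and 0.44% ± 0.20 (SD, n = 3). For *Pparg* it was 4.36% ± 1.22 and 1.61% ± 0.29. In all 3 genes the day 7 libraries lay below the day −2 libraries, as did the share over all reads. The other 4 receptors had at most 13.1 normalized labelled counts in any library, which cannot show a change at this depth.

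**Figure D3:**
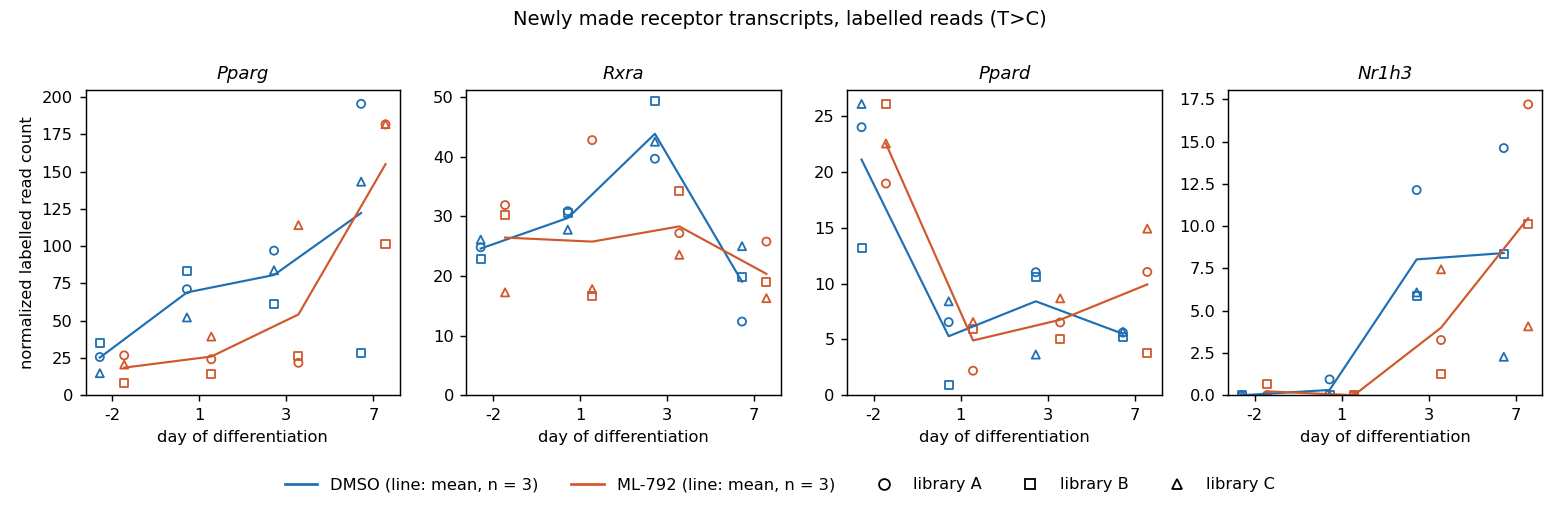
Normalized labelled read counts (y axis, scaled by total reads, from 0) of the 4 receptors tested in labelled reads, by day of differentiation (x axis), in DMSO (blue) and ML-792 (orange). Symbols are libraries and lines join the means. Pparg and Nr1h3 climb, Ppard drops after day −2, and Rxra in DMSO peaks at day 3, between 39.7 and 49.4.

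With ML-792 in the medium most receptors rose as well. Of the 8, 6 were called higher at day 7 than at day −2 in the 12 ML-792 libraries (21% of all genes), namely *Pparg*, *Rxra*, *Rxrb*, *Rxrg*, *Ppard* and *Nr1h3*. Here too *Rxrg* passed the filter on low counts only through its day 7 libraries and had to differ. At day 3, 5 were called higher (21.3%), and at day 1, *Rxra* was (11.9%). *Pparg* rose by 4.62 (SE 0.43, adjusted p = 1.2e-06) to day 7, with 517, 270 and 549 normalized total counts at day −2 and 12440, 6188 and 14174 at day 7, and *Nr1h3* by 5.08 (SE 0.18, adjusted p = 1.2e-10) from 63.8, 68.7 and 85.6 to 2693, 2252 and 2466. *Rxra* rose by 1.21 (SE 0.18, adjusted p = 6.0e-05) and lost that call, like its day 1 call, without the A libraries (1.07 and 1.06). The day 3 calls of *Ppard* (0.62) and *Rxrb* (0.64) were lost without the A or the C libraries, and that of *Rxrb* without the ML-792 day 3 library C too. *Rxrb* rose by 0.54 (SE 0.15, adjusted p = 0.00987) and lost it without the A (0.40) or the C libraries (0.52) or without the ML-792 day 3 library C or the DMSO day 7 library B (0.54 each). Without the B libraries *Rxrb* was called at day 1 as well (0.63, adjusted p = 0.00161). *Rxrg* went from 1.73, 0 and 0 to 34.4, 44.4 and 35.3 and lost its call without the C libraries (5.42). *Ppard* rose by 0.90 (SE 0.14, adjusted p = 8.1e-05). *Nr1h2*, at 766, 739 and 899 at day −2 and 1041, 811 and 1009 at day 7, was not called (0.25, SE 0.22, adjusted p = 0.39), nor was *Ppara* (2.167, SE 0.63, adjusted p = 0.0116), with 19.8, 24 and 17.9 at day −2 and 88.4, 90.1 and 100.5 at day 7. The libraries of *Ppara* at the 2 days did not overlap, and its rise was called under 7 of 12 alternatives, DESeq2 among them (adjusted p = 0.00041). In labelled reads, *Pparg* and *Nr1h3* were called higher at day 7 in ML-792 (2.11% of genes), and *Ppard* lower at day 1 (−2.16, SE 0.68, adjusted p = 0.00892, where 24.3% were). *Nr1h3* again passed the filter in labelled reads only through its later days and had to differ. The *Ppard* call was lost without the A (−1.93), the B (−2.19) or the C libraries (−2.44) and when labelled counts were scaled by labelled reads (−1.16), and the *Nr1h3* call without the C libraries (4.77), while without the A libraries *Nr1h3* was not tested.

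The direct comparison of ML-792 with DMSO asks whether blocking sumoylation changed the amount of receptor transcript. At day −2 no receptor was called, nor was any of the 13331 genes (0%, edgeR at an adjusted p under 0.1), with 184 genes and none of the receptors at an unadjusted p under 0.05. At day 3, *Rxra* and *Nr1h3* were lower in ML-792, 2 of 8 receptors, where 7.5% of all genes were lower and 15.5% were called in either direction. No receptor was called at day 1, where 7.87% of all genes were, or at day 7, where 11.7% were, and DESeq2 called the same 2 receptors in total. At an unadjusted p under 0.05 there were 2 receptors at day 1 and 1 at day 7, where 17.1% and 21.1% of all genes were.

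*Rxra* had 4504, 4525 and 3715 normalized total counts in ML-792 at day 3, all below the 6314, 7647 and 6353 of DMSO. The log2 fold change was −0.67 (SE 0.18, 95% interval −1.04 to −0.30, adjusted p = 0.0154, edgeR). The call was kept under 10 of 12 alternatives and was lost without the A libraries (−0.76) and without the C libraries (−0.63), over an adjusted p from 3.0e-05 to 0.186. At day 7 the treatments overlapped, with 4602, 4349 and 3366 in ML-792 and a log2 fold change of −0.11 (95% interval −0.48 to 0.26, adjusted p = 0.826). In ML-792 *Rxra* stayed between 3366 and 4602 from day 1 on, and these days overlapped, without the peak that DMSO had at day 3. That the effect at day 3 differed from the effect at day −2 was not called in the fit over 24 libraries (−0.75, SE 0.25, adjusted p = 0.122, where 6.08% of all genes were called), but it was called under 4 of 11 alternatives, over an adjusted p from 0.00168 to 0.554, among them DESeq2 (0.0914) and the fit without the DMSO day 7 library B (0.0862).

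*Nr1h3* had 713, 611 and 705 normalized total counts in ML-792 at day 3, all below the 891, 1024 and 947 of DMSO, at a log2 fold change of −0.50 (SE 0.17, 95% interval −0.85 to −0.14, adjusted p = 0.0759). This call was kept under 5 of 12 alternatives, over an adjusted p from 0.0227 to 0.247. Leaving out the A, the B or the C libraries ended it, at −0.58, −0.37 and −0.53, as did leaving out the ML-792 day 3 library C (−0.53). At day 7 all 3 ML-792 libraries were again below all 3 of DMSO, at −0.29 (95% interval −0.64 to 0.07, adjusted p = 0.415), which was not called.

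*Pparg* in ML-792 had 1319, 810 and 1222 normalized total counts at day 1, all below the 2174, 2365 and 1950 of DMSO. The log2 fold change was −0.95 (SE 0.47, 95% interval −1.93 to 0.02, adjusted p = 0.35) and was not called in the fit over 24 libraries. It was called under 3 of 12 alternatives, with the adjusted p from 0.00023 to 0.719: in the 6 libraries of day 1 alone (0.0361), without the DMSO day 7 library B (0.0937) and with no filter on low counts. Labelled *Pparg* reads at day 1 were 24.2, 14.3 and 39.4 in ML-792, also below every DMSO library, at −1.39 (SE 0.58, adjusted p = 0.35). At day 3 the total counts were 3030, 2814 and 6316 in ML-792 and overlapped with DMSO through library C. *Pparg* was not called at day 3 with or without that library, whose omission was chosen after seeing the data. At day 7 the log2 fold change was 0.52 (95% interval −0.44 to 1.48, adjusted p = 0.634). The interaction of day and treatment was not called for *Pparg* (adjusted p = 0.559).

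The other 5 receptors were not called at any day. For *Ppard* the intervals were narrow, from −0.43 to 0.17 at day 3 and from −0.15 to 0.45 at day 7. *Nr1h2* (−0.58, 95% interval −1.11 to −0.05, adjusted p = 0.218) and *Rxrb* (−0.38, 95% interval −0.87 to 0.11, adjusted p = 0.446) had all 3 ML-792 libraries below all 3 DMSO libraries at day 7. With *Nr1h3*, 3 of the 8 receptors separated by treatment at that day. How many of all genes separate in this way was not counted at any day, so no conclusion is drawn from it. *Rxrg* at day 3 had 3.26, 0 and 0 normalized counts in ML-792, beside 3.31, 7.06 and 7.29 in DMSO, too few to compare. *Ppara* at day 1 had 0, 1.19 and 16.9 in ML-792, where 1 library decides the mean. The test of the interaction of day and treatment called none of the 8 receptors in total reads (11.9% of all genes) and none of 4 in labelled reads (0.28%), by edgeR or DESeq2, with 1 (*Rxra*) and 0 at an unadjusted p under 0.05, where 20.8% and 8.11% of genes were. With the library letter as a block, edgeR's interaction test called *Rxra* (adjusted p = 0.00377), *Nr1h2* (0.0362) and *Rxrb* (0.0822) in total reads. The block raised calls over all genes too. For the effect at day 3 minus that at day −2 it called 866 higher and 881 lower, against 447 and 364 without it. In labelled reads, ML-792 against DMSO called none of the 4 by either tool, where 0.979%, 1.15% and 0.948% of genes were called at days 1, 3 and 7, and *Pparg* at day 1 was the one with an unadjusted p under 0.05 (11.3% of genes at that day).

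**Figure D4:**
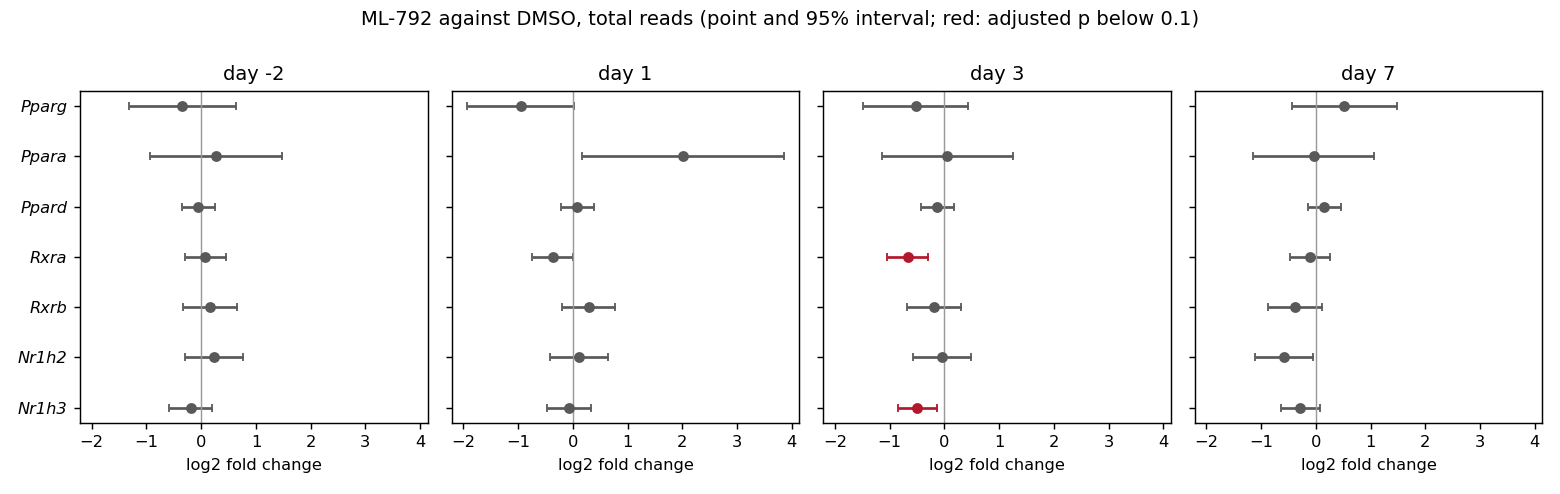
Log2 fold change of ML-792 against DMSO in total reads (x axis) for 7 receptors at each day, with 95% intervals from edgeR (n = 3 per group). Rxrg is left out because its libraries before day 7 hold at most 6 reads. Rxra (−0.67) and Nr1h3 (−0.50) at day 3 are the 2 called differences, in red.

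Genes around the receptors were counted from lists drawn up from general knowledge of the pathways, with earlier results of these data known. The counts called are therefore a description and not an independent test. All 22 listed PPARγ targets were higher at day 7 than at day −2 in DMSO (19.3% of all genes) and all 22 in ML-792 (21%), with median log2 fold changes of 6.93 and 7.02. Several had no read or a few reads before induction and passed the low-count filter only through the later days. *Fabp4*, a fatty acid carrier, went from 1005 ± 285 to 147935 ± 10748 normalized counts in DMSO (SD, n = 3), *Lpl*, the lipoprotein lipase, from 20599 ± 374 to 323802 ± 19189, and *Acsl1*, which activates fatty acids, from 674 ± 103 to 79885 ± 8529. ML-792 moved the targets both ways at day 7, with 6 of 22 higher (6.32% of all genes) and 4 lower (5.43%), and a median of 0.08. Without the A libraries or without the C libraries 1 was higher, without the B libraries 10 were, and without the C libraries 2 were lower. *Fabp4* was higher (257773 ± 25315, 0.80, adjusted p = 0.0738), a call lost without the A (0.92) or C libraries (0.70) or the DMSO day 7 library B (0.82), while *Lpl* (0.02) and *Acsl1* (0.43, adjusted p = 0.116) were not called. *Acsl1* was called higher without the B libraries (0.51, adjusted p = 0.00989) and without the DMSO day 7 library B (0.52, adjusted p = 0.0968). DESeq2, the fit with 1 entry per gene and the replicate block called it higher too. *Aqp7*, a glycerol channel, was higher (391 ± 79.1 against 105 ± 22.2, log2 fold change 1.90, adjusted p = 0.00079), a call lost without the A libraries (1.91). The lipid droplet protein *Cidea* was lower (204 ± 45.4 against 855 ± 111, −2.06, adjusted p = 0.00134), as were *Slc2a4*, the insulin-dependent glucose carrier (1145 ± 199.6 against 3073 ± 256, −1.42, adjusted p = 0.00033), and *Pck1*, which makes glycerol for triglycerides (317 ± 113 against 828 ± 239, −1.38, adjusted p = 0.0163), the last not called without the C libraries (−1.19). At day 3, 6 were higher (8.04%) and 7 lower (7.5%). Several of these targets are also adipocyte markers, so the 2 sets of values are not independent.

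Of 19 listed targets of PPARα and PPARδ, 17 were tested, and those called at day 7 were all higher in ML-792. These were 5 of 17, where 6.32% of all genes were higher and 5.43% lower. The median of the 17 was 0.53, against 0.0062 over all genes. *Cpt1a*, which brings fatty acids into mitochondria, was at 627 ± 98.2 normalized counts in ML-792 and 207 ± 13.7 in DMSO (SD, n = 3, log2 fold change 1.60, adjusted p = 1.6e-07). *Acaa2*, an enzyme of fatty acid oxidation, was at 10022 ± 2142 and 3674 ± 370 (1.45, adjusted p = 1.4e-05), and *Acot1*, an acyl-CoA thioesterase, at 37.5 ± 8.14 and 7.58 ± 4.03 (2.28, adjusted p = 0.0005). *Cpt1b*, the muscle form, was at 96.8 ± 31.7 and 28.0 ± 20.0 (1.79, adjusted p = 0.0154), a call lost without the C libraries (adjusted p = 0.275). In DMSO *Cpt1a* and *Acot1* had fallen from day −2 (−2.85 and −3.62), while 12 of the 17 had risen and 2 had fallen (19.3% of all genes higher and 19.1% lower). *Hadha* and *Acadl*, oxidation enzymes with many reads, were not called (−0.27 and 0.05). At day 3, 7 were higher (8.04% of all genes) and 0 lower (7.5%). *Ppara* and *Ppard* themselves were not called at these days.

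**Figure D5:**
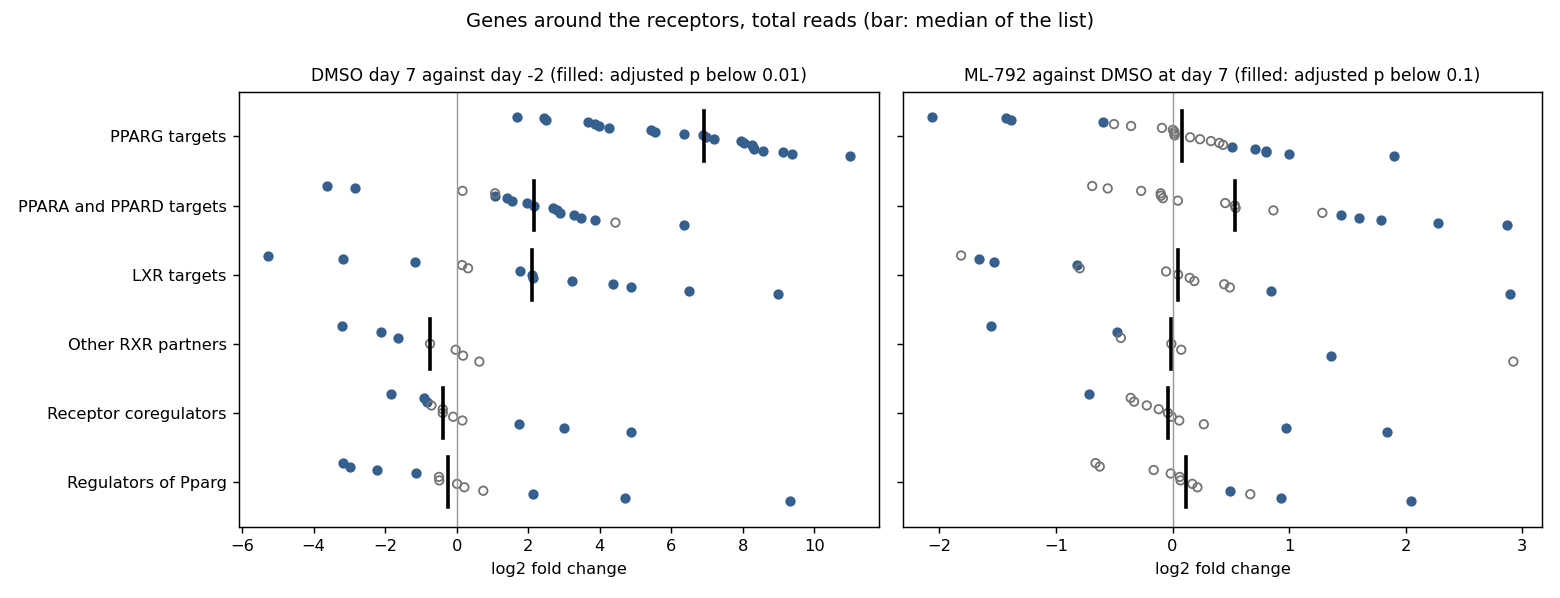
Log2 fold changes in total reads (x axis) of the tested genes of 6 lists (rows): the left panel sets DMSO day 7 against day −2 and the right panel sets ML-792 against DMSO on day 7. Each symbol is a gene, filled where it was called, and bars are list medians. PPARG targets are all to the right of 0 on the left panel (median 6.93) and lie on both sides of it on the right panel (median 0.08).

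Of 16 listed LXR targets, 13 were tested, with 8 higher and 3 lower at day 7 than at day −2 in DMSO (19.3% and 19.1% of all genes). ML-792 moved 2 up and 3 down at day 7 (6.32% and 5.43%), and without the A libraries 1 up. *Scd1*, the desaturase of fatty acid synthesis and also controlled by other factors, was at 33818 ± 8120 in ML-792 and 107056 ± 22499 in DMSO (log2 fold change −1.66, adjusted p = 2.0e-05). *Abcg1*, a cholesterol exporter, was at 370 ± 67.6 and 1071 ± 182 (−1.53, adjusted p = 0.00042), and *Fasn*, the fatty acid synthase, at 18734 ± 6112 and 32968 ± 2970 (−0.82, adjusted p = 0.0534), a call lost without the A (−1.11) or C libraries (−0.81) or the DMSO day 7 library B (−0.75). *Pltp*, a phospholipid transfer protein, had fallen in DMSO (−3.19 at day 7) and was higher in ML-792, at 1127 ± 143 and 151 ± 28.9 (2.90, adjusted p = 1.2e-09), and *Lpcat3*, a phospholipid remodelling enzyme, was not called (0.19).

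Among the other receptors that pair with RXR, 7 of 11 listed were tested, and at day 7 in DMSO edgeR called 3 lower (19.1% of all genes) and 0 higher (19.3%). *Nr4a1*, a stress-induced orphan receptor, had 7826 ± 1491 at day −2 and 838 ± 273 at day 7, and was higher in ML-792 at day 7 (2147 ± 127, log2 fold change 1.36, adjusted p = 0.00025). The vitamin D receptor *Vdr* was at 385 ± 37.6 in DMSO and 131 ± 27.1 in ML-792 at day 7 (−1.55, adjusted p = 1.4e-06). *Thra*, a thyroid hormone receptor, was not called (0.07). Beside *Vdr*, *Rara* was the other of the 2 partners lower in ML-792 at day 7, and without the A or the C libraries 1 was lower. The count was also 1 with at least 10 reads, with no filter and in the 6 libraries of day 7 alone.

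Of 11 coregulators, all were tested, and 2 were higher and 1 lower in ML-792 at day 7 (6.32% and 5.43% of all genes). The coactivator *Ppargc1a*, a driver of mitochondrial genes, was at 499 ± 130 in ML-792 and 139 ± 12.4 in DMSO (log2 fold change 1.84, adjusted p = 2.3e-05), and the corepressor *Nrip1* at 9743 ± 1537 and 4955 ± 442 (0.98, adjusted p = 0.00039). *Ncoa3* was the lower one (−0.71, adjusted p = 0.00803). The call was lost without the A or the C libraries, with no filter on low counts and in the 6 libraries of day 7 alone. *Med1* (0.06) and *Ncor1* (−0.01) were not called. Of 12 known regulators of *Pparg*, 3 were higher and 4 lower at day 7 in DMSO, shares near those of all genes (19.3% and 19.1%). In ML-792 against DMSO at day 7, 3 were higher (6.32%) and 0 lower (5.43%), while 1 was higher without the A libraries and 2 were lower without the B libraries. *Cebpa*, the partner of PPARγ in the adipocyte programme, was at 6912 ± 2238 in ML-792 and 7730 ± 1854 in DMSO (−0.16, adjusted p = 0.86). *Gata3*, a repressor of *Pparg*, was at 124 ± 48.5 and 29.9 ± 8.12 (2.05, adjusted p = 0.00061), and *Cebpd* was higher too (0.49, adjusted p = 0.0738), a call lost without the A (0.62) or C libraries (0.34) or the DMSO day 7 library B (0.45). The *Cebpd* call was also lost with at least 10 reads (adjusted p = 0.113), no filter (0.234), the 6 libraries of day 7 alone (0.191) and upper quartile scaling (0.112). *Cebpb* was not called (0.17).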

How the data were processed

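QuantSeq 3′ libraries of 4-thiouridine-labelled, base-converted RNA were sequenced as 50-base single reads (bcl2fastq 2.17.1.14 in the submitters' processing notes). The authors mapped them to mm10 with SlamDunk and deposited counts, whole numbers of total and of labelled reads (at least 1 T-to-C change) per RefSeq 3′ untranslated region. The deposited counts of 6 further columns per table belong to no sample and were not used. Reads carry no molecular identifiers, so floors cover counting error only. The intervals of log2 fold changes are from the edgeR fits over replicate libraries, so they also include the spread between those libraries.

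The members and gene lists were chosen with earlier results of these data known. A gene with several entries was followed through the one with most total reads on average. Counts were scaled by TMM factors of the 24 libraries (edgeR 4.0.16, limma 3.58.1, R 4.3.3), labelled counts by the factors of total counts. Entries passing filterByExpr (minimum count 10, 26563 in total and 10589 in labelled reads) were tested by quasi-likelihood F-tests with Benjamini-Hochberg adjustment over all entries, at 0.01 for each treatment's time course (12 libraries) and 0.1 for ML-792 against DMSO and the interaction (24 libraries). Shares of genes called are over the 13331 (total) or 6434 (labelled) symbols represented by a tested entry. Log2 counts for correlations and for deviations of a library had 2 added. List genes named were the 3 with the most reads and those called for ML-792 at day 7 with a log2 fold change above 1 in size, and *Rara* and *Ncoa3*, named after their values were seen. One gene that this rule names is not reported here. The tests were tried on simulated data with known changes. No entry of another gene overlaps those of the 8 receptors. Promoter and half-site sequences are from RefSeq (GRCm38.p6), where all 8 symbols matched. Python 3 with matplotlib drew the plots. Alternatives were DESeq2 1.42.0, filters of at least 10 reads or none, 1 entry per gene, a replicate block, other groups of libraries, other scalings and leaving out libraries, of which leaving out single libraries (DMSO day 7 B, ML-792 day 3 C) was chosen after seeing the data.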

Additional observations from a re-analysis of the deposited data

How the results depend on the processing

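No receptor result reversed. Of the receptors' single comparisons under the alternatives, 75 lost and 70 gained a call. Of the counts of receptors called, that of the DMSO time course in total reads ran from 4 to 8 when the libraries of 1 letter were left out (8 with all libraries), in labelled reads from 0 to 2 (2 with all), that of the ML-792 time course in labelled reads from 1 to 2 (3 with all), and that of ML-792 against DMSO in total reads from 0 to 1 (2 with all), the last being 1 with at least 10 reads and 1 without the ML-792 day 3 library C, which was chosen after seeing the data. Fewer libraries were tested in these fits. With no filter the interaction called 1 receptor (*Pparg*), and with the replicate block 3 (*Rxra*, adjusted p = 0.00377, *Nr1h2*, 0.0362, and *Rxrb*, 0.0822). Same-letter libraries deviated together above 0.1 in all 3 letters for 19 of 28 pairs of conditions in total reads, but not for the rest, where r fell to −0.12, and for 0 of 28 in labelled reads. *Rxra* was lowest in the C library in 7 of the 8 conditions, *Nr1h2* in the B library in 7 and *Rxrb* in the B library in 6. Pairing was accepted only where every pair passed, so the replicate block remains an alternative. The replicate block also ended the DMSO day 1 call of *Pparg* (1.93, adjusted p = 0.0223), and it called the fall of *Rxra* from day 3 to day 7 in DMSO (−0.62, adjusted p = 0.00076), its lower value in ML-792 at day 1 (−0.36, adjusted p = 0.0279), its change of effect between day −2 and day 3 (−0.74, adjusted p = 0.00168) and the rise of *Ppara* in ML-792 to day 7 (2.16, adjusted p = 0.00072). Among the lists it called 2 regulators of *Pparg* lower in ML-792 at day 7 and 1 other RXR partner higher in DMSO at day 7. With the replicate block *Nr1h2* was called lower in ML-792 at day 7 (−0.61), a result not called in the other 11 alternatives. Leaving out A or C libraries also cut the calls over all genes. Labelled reads of *Rxrb*, *Rxrg*, *Ppara* and *Nr1h2* were too few to test.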
